A study of Drosophila melanogaster with 15 samples.

Results

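Glutathione synthesis, its control by the Nrf2 factor of flies and the enzymes that remove superoxide and hydrogen peroxide were followed in whole adult males of Drosophila melanogaster that express Dsup, and in control males, with and without ionizing radiation. The genes named were Gclc, Gclm, cnc, Keap1, Sod1, Sod2 and Cat, and a gene was measured by a probe set that carries exactly 1 gene symbol in the array annotation. Of these 7 genes, 6 had such a probe set. Sod1, the cytosolic superoxide dismutase, was not analysed here. The gene cnc had 2 probe sets, each other gene had 1, and the 7 probe sets stood among 18769 tested, which represent 11982 genes.

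Dsup is the damage suppressor protein of a tardigrade, known to bind nucleosomes. The groups were Dsup-expressing males of transgenic lines Dsup-1 to Dsup-4 after 1000 Gy (4 arrays, 1 per line), control males after 1000 Gy (3 arrays), untreated males of the same 4 Dsup lines (4 arrays) and untreated control males (4 arrays). All flies were 3-day-old adults, and each array measured RNA from the whole bodies of 25 flies. The labels do not state the promoter that drives Dsup, the genotype of the controls beyond that word or how long after irradiation RNA was taken, so genetic background and the transgene cannot be told apart. The control arrays are named biological replicates, while each Dsup array of a treatment is another transgenic line. In whole bodies, fewer cells of a type and less RNA per cell cannot be told apart.

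Glutathione is a small thiol that reduces peroxides and is conjugated to electrophiles. Its first and rate-limiting step is catalysed by glutamate-cysteine ligase, which in flies is made of the catalytic subunit encoded by Gclc and the modifier subunit encoded by Gclm. One product of cnc, CncC, is the fly counterpart of mammalian Nrf2: it binds antioxidant response elements together with the small Maf protein maf-S, and Gclc and Gclm are among its known targets. Keap1 holds CncC back by handing it to a Cul3 ubiquitin ligase, and oxidants and electrophiles loosen that hold. Sod2 is the superoxide dismutase of mitochondria and Cat is catalase, which breaks down hydrogen peroxide in peroxisomes.

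The arrays are Affymetrix 3' expression arrays. Values are log2 levels after quantile normalization over all 15 arrays unless another scaling is named. A change is called where limma's Benjamini-Hochberg adjusted p, over all 18769 probe sets, was below 0.05. The deposited values differed in overall level by group, with mean levels of 4.49 in irradiated Dsup lines, 4.87 in irradiated controls, 4.04 in untreated Dsup lines and 4.63 in untreated controls. Any pair of the irradiated controls had identical deposited values at 6814 to 7744 of 18952 probe sets, and no other pair of arrays at more than 209. That touched the genes studied here: the higher cnc probe set and Keap1 had 1 and the same deposited value on all 3 irradiated control arrays, Gclc, Gclm, Sod2 and the lower cnc probe set had 2 distinct values among the 3, and only Cat had 3. The spread of irradiated controls may therefore be too small. All groups share 1 estimate of the spread, so p-values of every comparison may be too small, also where no irradiated controls are compared. Each call is thus also given with the spread estimated without irradiated controls where that changes it. That estimate still counts the 3 irradiated controls as independent arrays. For Nox in control flies only the number of alternatives that kept the call is given. The 18 hybridization spike-in probe sets split the arrays into 6 low and 9 high ones, with each group in both parts. The low part held 1 array of each Dsup group and 2 of each control group. The high part held 3 arrays of each Dsup group, 1 irradiated control and 2 untreated controls. Values within a part therefore rest in some groups on 1 array. The 3' minus 5' difference of the actin and GAPDH control probe sets, a sign of RNA quality, was 1.25 to 1.46 in irradiated Dsup lines and 1.34 to 1.51 in irradiated controls. It was 1.01 to 1.19 in untreated Dsup lines and 0.774 to 1.24 in untreated controls. An 18S rRNA control probe set stood 3.13 above the array median in untreated control 4, against 6.93 to 8.21 on the other arrays. Without that array the untreated differences between Dsup lines and controls were -0.034 for Keap1 and -0.047 for Sod2, against 0.13 and 0.07 with it. As a check of the label, the 8 testis markers lay between percentile 16 of level (bam) and 98.8 (ocn), and the 7 accessory gland markers between 62.2 and 98.8. The 6 female markers lay at percentiles 16.1 (Yp1) to 54.7 (Yp3), with Cp15 at 51.4.

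The 7 probe sets spanned most of the range of levels on the array. Averaged over the 15 arrays, Cat stood at 10.15 (percentile 97.9 of probe sets), Sod2 at 9.56 (96.9), Gclc at 8.07 (91.8), the higher cnc probe set at 7.28 (85.7), Gclm at 5.70 (66.6), Keap1 at 4.31 (49.4) and the lower cnc probe set at 2.02 (22.7). Levels of different probe sets depend on their probes, so this order places each one on the array and does not compare amounts of RNA. Gclm varied most, with an SD of 0.906 over the 15 arrays, and Sod2 and Gclc least, with 0.188 and 0.197.

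**Figure D1:**
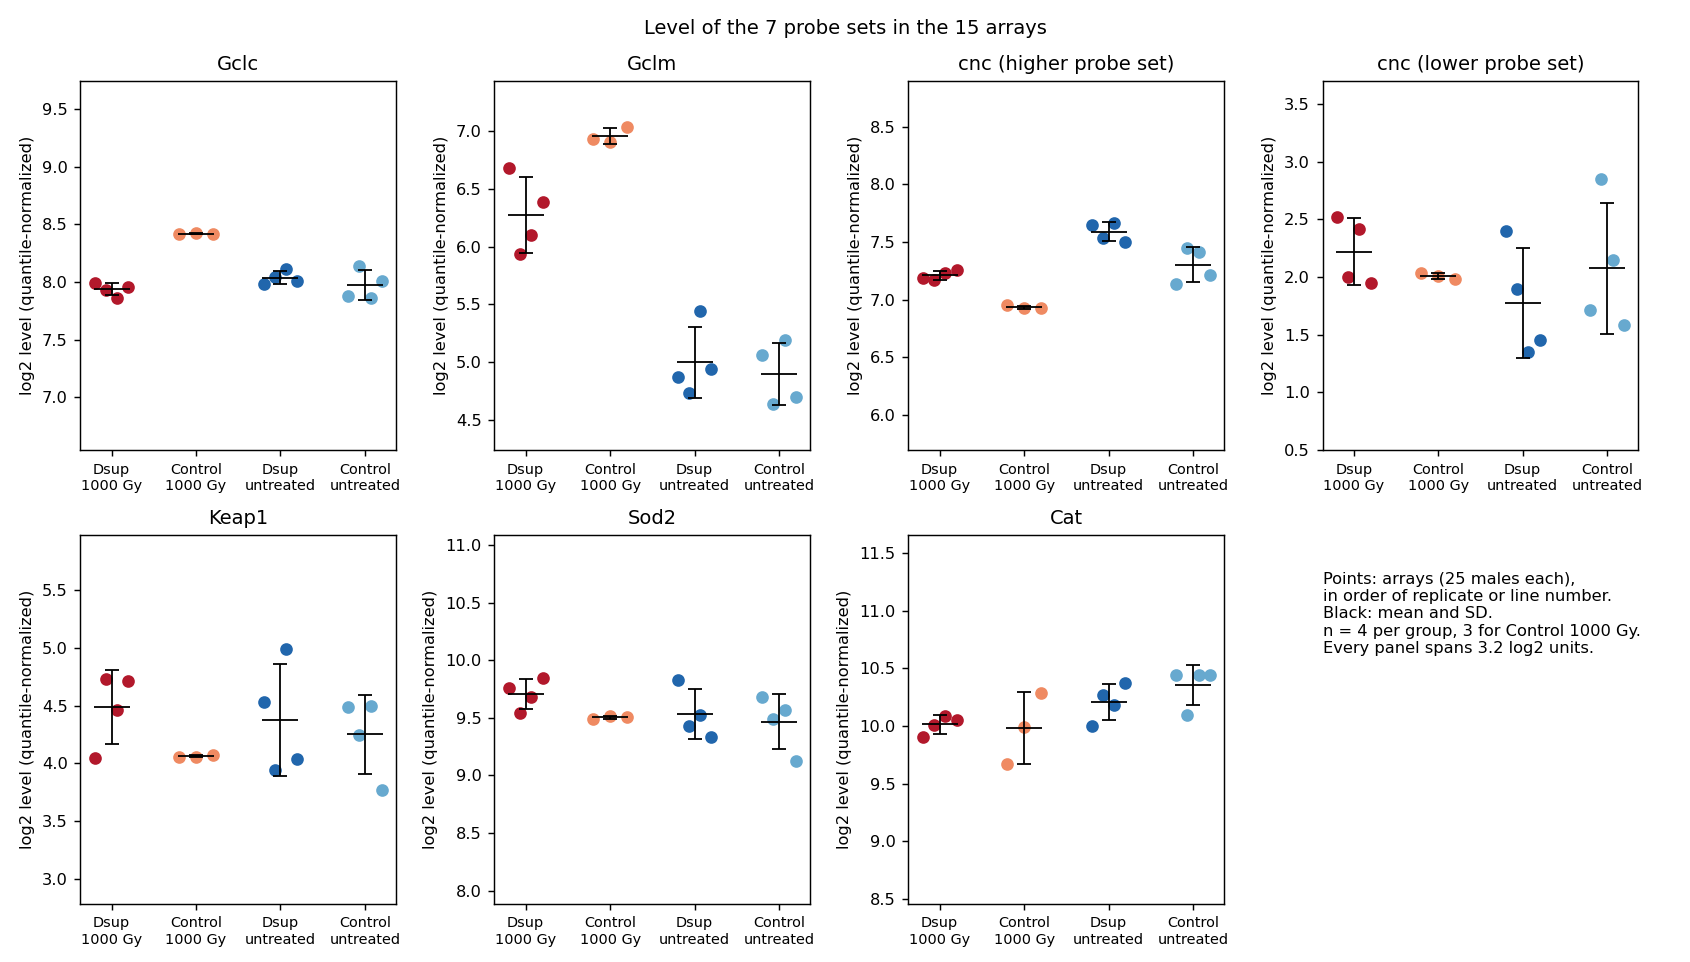
Log2 level (quantile-normalized, vertical axis) of each probe set in the 15 arrays by group; points are arrays, black marks the mean and SD, and every panel spans the same number of log2 units. Gclm separates irradiated from untreated arrays without overlap (at least 5.93 against at most 5.44), while Keap1 and the lower cnc probe set overlap in all comparisons.

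The modifier subunit of glutamate-cysteine ligase responded to radiation in both genotypes. Gclm stood at 6.69, 5.93, 6.10 and 6.39 in irradiated Dsup lines 1 to 4 and at 6.93, 6.90 and 7.04 in irradiated controls, against 4.87, 4.73, 5.44 and 4.94 in untreated Dsup lines 1 to 4 and 5.06, 4.63, 5.19 and 4.69 in untreated controls. Every irradiated array was above every untreated array, as held within a genotype for the groups of 20.4% of all genes in Dsup lines and 49.1% in control flies, in either direction. The irradiated controls were above the irradiated Dsup lines without overlap. In the Dsup lines the log2 level of Gclm rose by 1.28 ± 0.18 (SE), or 2.43-fold (limma adjusted p = 0.000218, n = 4 irradiated and 4 untreated). This change lay at percentile 99.6 of all genes' changes in that comparison. In control flies Gclm rose by 2.06 ± 0.19, or 4.18-fold (limma adjusted p = 3.59e-06, n = 3 irradiated and 4 untreated), at percentile 99.4.

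By line, the irradiated minus untreated difference of Gclm was 1.82 in Dsup-1, 1.20 in Dsup-2, 0.66 in Dsup-3 and 1.45 in Dsup-4. Dsup-3 had both the smallest difference and the highest untreated value. The rise of Gclm was called under all 13 alternatives tried and without each array in turn in both genotypes, between 1.10 and 1.82 in Dsup lines and between 2.01 and 2.36 in control flies among the alternatives. Within the low spike-in arrays it was 1.82 in Dsup lines, which is line Dsup-1 alone, and 2.07 in control flies. Within the high ones it was 1.10 in Dsup lines and, with 1 irradiated control, 2.10 in control flies.

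The catalytic subunit moved less. Gclc stood at 7.99, 7.93, 7.86 and 7.96 in irradiated Dsup lines 1 to 4 and at 8.42, 8.42 and 8.41 in irradiated controls, against 7.98, 8.05, 8.11 and 8.01 in untreated Dsup lines and 7.88, 8.14, 7.86 and 8.01 in untreated controls. The 3 irradiated controls stood above the other 12 arrays, which overlapped with each other. Irradiated and untreated controls did not overlap for 49.1% of all genes, nor irradiated Dsup lines and irradiated controls for 33.6%, in either direction. In the Dsup lines the change of Gclc was -0.10 ± 0.07 and not called (limma adjusted p = 0.329, interval -0.25 to 0.05). As deposited, without rescaling, it was 0.44 and called, beside a median of 0.48 for all genes, so its sign rests on the scaling. In control flies Gclc rose by 0.44 ± 0.08, or 1.36-fold (limma adjusted p = 0.000535). With the 3' minus 5' difference as a covariate this was 0.39 (limma adjusted p = 0.0772). Within the low spike-in arrays the rise was 0.41 (limma adjusted p = 0.0277). Within the high ones, with 1 irradiated control, it was 0.48 and not called.

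The radiation response of Gclc differed between the genotypes. The interaction, in which the change of control flies is taken from that of Dsup lines, was -0.54 ± 0.11 (limma adjusted p = 0.0054), and it was called without each array in turn and under 10 of 12 alternatives. The exceptions were the comparisons within the low and within the high spike-in arrays, where it was -0.40 and -0.62. For those comparisons the spread came from all 15 arrays, and at least 1 group had 1 array. For Gclm the interaction was -0.78 ± 0.26, larger in size but not called (limma adjusted p = 0.0746, interval -1.34 to -0.23). It was called after centring on ribosomal protein genes, at -0.91 (limma adjusted p = 0.0241), and without irradiated line Dsup-1, at -0.92 (limma adjusted p = 0.0287). Across the other 11 alternatives its adjusted p lay between 0.0515 and 0.847. Of all genes, 7.34% were called in the interaction, against 1 of the 6 genes here.

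After radiation both subunits were lower in Dsup lines than in controls. The log2 difference of Gclc was -0.48 ± 0.08, 1.40-fold lower in Dsup lines (limma adjusted p = 0.00135). That of Gclm was -0.68 ± 0.19, 1.60-fold lower (limma adjusted p = 0.0301). The values of both groups did not overlap for either gene, as held for 33.6% of all genes in this comparison. The call of Gclm was lost when the spread was estimated without irradiated controls (limma adjusted p = 0.0587), with the 3' minus 5' covariate (0.0521), with the spike-in split as a block (0.0535) and with the lowest 40% of probe sets left out before testing (0.0629). It was also lost without irradiated control 1, 2 or 3 or irradiated line Dsup-2 or Dsup-3, where the difference was -0.57 to -0.71 (limma adjusted p = 0.0818 to 0.104). Within the low and high spike-in arrays the difference of Gclm was -0.23 and -0.90, and that of Gclc -0.43 and -0.49, none of them called. In untreated flies the differences were 0.06 ± 0.07 for Gclc and 0.10 ± 0.18 for Gclm, neither called, with intervals of -0.09 to 0.22 and -0.28 to 0.48.

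The difference between the 2 probe sets within an array does not depend on how arrays are centred. On deposited values, Gclm minus Gclc averaged -1.69 ± 0.30 in irradiated Dsup lines, -1.49 ± 0.07 in irradiated controls, -3.0 ± 0.24 in untreated Dsup lines and -3.0 ± 0.39 in untreated controls (SD, n = 4, 3, 4 and 4). All irradiated arrays lay above all untreated arrays. Relative to Gclc, Gclm was thus higher after radiation by 1.30 in Dsup lines (2.46-fold) and by 1.51 in control flies (2.85-fold). The exact two-sided permutation p was 0.0286 for each, which is the smallest these group sizes allow. Over the 12 within-array comparisons made, the adjusted value was 0.171 for both, which does not pass. Between Dsup lines and controls the same difference was -0.20 after radiation (exact permutation p = 0.314) and 0.00 in untreated flies (exact permutation p = 0.971).

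**Figure D2:**
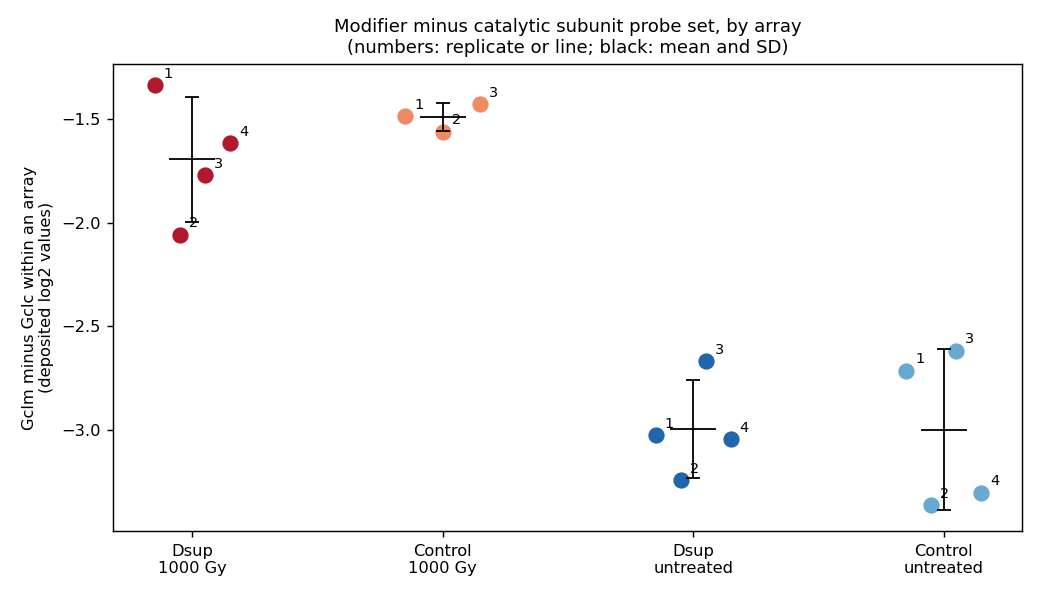
Gclm minus Gclc within each array on deposited log2 values (vertical axis) by group, with replicate or line numbers beside the points and the mean and SD in black. Irradiated arrays lie between -2.06 and -1.34 and untreated arrays between -3.36 and -2.62, in both genotypes.

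No rise of cnc RNA was called after radiation in either genotype. The higher cnc probe set stood at 7.19, 7.17, 7.24 and 7.26 in irradiated Dsup lines 1 to 4 and at 6.95, 6.93 and 6.93 in irradiated controls, against 7.65, 7.54, 7.67 and 7.50 in untreated Dsup lines and 7.14, 7.45, 7.41 and 7.21 in untreated controls. Irradiated arrays were below untreated arrays of the same genotype without overlap. The groups of 20.4% of all genes in Dsup lines and 49.1% in control flies did not overlap, in either direction. In Dsup lines the higher cnc probe set fell by 0.38 ± 0.08 (limma adjusted p = 0.00336) and in control flies it fell by 0.37 ± 0.08 (limma adjusted p = 0.00334). As deposited, the changes were 0.15 in Dsup lines and -0.01 in control flies, neither called, beside medians of all genes of 0.48 and 0.27. After centring on the median or on ribosomal protein genes they were -0.26 and -0.41 in Dsup lines, both called (limma adjusted p = 0.0299 and 0.0109). The call in Dsup lines was made under 11 of 13 alternatives and without each array in turn. In control flies the changes after these centrings were -0.20 and -0.28, neither called. Of these 4 scalings, the fall of cnc in control flies was called only after quantile normalization. With the 3' minus 5' covariate it was -0.42 there (limma adjusted p = 0.0755), and within the low and high spike-in arrays -0.35 and -0.38, neither called. The interaction was -0.01 ± 0.11 (limma adjusted p = 0.975, interval -0.25 to 0.23).

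The same probe set was higher in Dsup lines than in controls, by 0.28 ± 0.08 after radiation (limma adjusted p = 0.0406) and by 0.29 ± 0.08 in untreated flies (limma adjusted p = 0.0279), without overlap between the groups in either. After radiation 10.3% of all genes were called and the groups of 33.6% did not overlap. In untreated flies cnc was the only one of the 6 genes called, where 9.31% of all genes were called and the groups of 11.5% did not overlap. Both calls depend on the scaling: on deposited values the probe set was lower in Dsup lines, at -0.23 after radiation and -0.39 in untreated flies, beside medians of all genes of -0.45 and -0.65. The call in untreated flies was made under 6 of 13 alternatives, deposited values included, and after centring on ribosomal protein genes the difference was 0.23 (limma adjusted p = 0.147). It was lost without untreated control 1 or 4 or untreated line Dsup-1 or Dsup-3, with differences of 0.23 to 0.27 (limma adjusted p = 0.064 to 0.0714), and with the spread estimated without irradiated controls (limma adjusted p = 0.0664). The call after radiation was made under 3 of 13 alternatives, 1 of them the deposited values with the opposite sign. It was lost after centring on ribosomal protein genes, where the difference was 0.11 (limma adjusted p = 0.514), and after median centring, where it was 0.22 (0.0769). It was also lost without any 1 of the 7 irradiated arrays, with differences of 0.26 to 0.29 (limma adjusted p = 0.0503 to 0.131), with the Dsup line as a replicate block (limma adjusted p = 0.0594), with the 3' minus 5' covariate (0.0534), with the spike-in block (0.0587), with the filter on level (0.0786) and with the spread estimated without irradiated controls (0.0872).

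The lower cnc probe set did not follow the higher one. It stood at 2.52, 2.0, 2.42 and 1.95 in irradiated Dsup lines 1 to 4 and at 2.03, 2.01 and 1.98 in irradiated controls, against 2.40, 1.90, 1.35 and 1.45 in untreated Dsup lines and 1.71, 2.85, 2.15 and 1.59 in untreated controls. All groups overlapped, and no change was called, with SEs of 0.26 to 0.38. On deposited values it was called higher after radiation in Dsup lines (0.84, limma adjusted p = 0.00587, beside a median of 0.48 for all genes) and lower in untreated Dsup lines than in untreated controls (-0.79, limma adjusted p = 0.0068, beside -0.65). The correlation of the 2 cnc probe sets over the 15 arrays was -0.07. The gene makes several transcripts, CncC among them, and which of them each probe set measures was not analysed here.

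Keap1, the repressor of CncC, was not called in any comparison. It stood at 4.04, 4.73, 4.46 and 4.71 in irradiated Dsup lines 1 to 4 and at 4.05, 4.06 and 4.07 in irradiated controls, against 4.53, 3.94, 4.99 and 4.04 in untreated Dsup lines and 4.49, 4.25, 4.50 and 3.77 in untreated controls. The lines went in both directions: Dsup-2 and Dsup-4 were higher after radiation by 0.79 and 0.67, while Dsup-1 and Dsup-3 differed by -0.49 and -0.53. The change was 0.11 ± 0.22 in Dsup lines and -0.19 ± 0.24 in control flies, with intervals of -0.36 to 0.58 and -0.70 to 0.32, which leave room for changes of either sign. On deposited values Keap1 was called higher after radiation in Dsup lines (0.53, limma adjusted p = 0.036), close to the median of all genes there. It was also called lower there in untreated Dsup lines than in untreated controls (-0.56, limma adjusted p = 0.0242, beside a median of -0.65).

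Sod2 and Cat, the enzymes of superoxide and peroxide removal studied here, changed by at most 0.37 in size in any comparison of quantile-normalized values. Sod2 stood at 9.76, 9.54, 9.68 and 9.85 in irradiated Dsup lines 1 to 4 and at 9.49, 9.52 and 9.51 in irradiated controls, against 9.83, 9.43, 9.53 and 9.33 in untreated Dsup lines and 9.68, 9.49, 9.57 and 9.13 in untreated controls. Only after radiation did Dsup lines and controls not overlap, as held for 33.6% of all genes. The difference of 0.20 ± 0.13 was not called (limma adjusted p = 0.363). The radiation change was 0.18 ± 0.12 in Dsup lines and 0.04 ± 0.13 in control flies, neither called. After median centring these were 0.39 in Dsup lines and 0.35 in control flies and called (limma adjusted p = 0.0293 and 0.0439), and on deposited values 0.81 and 0.54 and called.

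Catalase RNA was called lower after radiation in control flies, and under 6 of 13 alternatives. Cat stood at 9.90, 10.01, 10.09 and 10.05 in irradiated Dsup lines 1 to 4 and at 9.67, 9.99 and 10.29 in irradiated controls, against 10.002, 10.27, 10.18 and 10.38 in untreated Dsup lines and 10.44, 10.10, 10.45 and 10.44 in untreated controls. Untreated control 2 lay apart from the other 3 untreated controls, and it overlapped with the irradiated ones. The change in Dsup lines was -0.19 ± 0.12 (limma adjusted p = 0.281), and in control flies Cat fell by 0.37 ± 0.13 (limma adjusted p = 0.042). The change in control flies was -0.07 after median centring, -0.16 after centring on ribosomal protein genes and 0.12 on deposited values, none of them called. It was not called with the Dsup line as a replicate block (limma adjusted p = 0.0518). Without untreated control 1, 3 or 4, irradiated control 1 or 2, or irradiated line Dsup-2, Dsup-3 or Dsup-4, the call was also lost, with changes of -0.22 to -0.38 (limma adjusted p = 0.0508 to 0.25). The smallest of these changes was without irradiated control 1. Within arrays, Cat minus Sod2 differed after radiation by -0.41 in Dsup lines and -0.42 in control flies (exact two-sided permutation p = 0.114 for each).

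Counted over the 6 genes by their higher probe set, 2 were called in Dsup lines after radiation (Gclm higher, cnc lower), where 20.6% of all genes were called. In control flies 4 were called (Gclc and Gclm higher, cnc and Cat lower), against 36.3% of all genes. Between Dsup lines and controls after radiation 3 were called (cnc higher, Gclc and Gclm lower), against 10.3% of all genes. With the spread estimated without irradiated controls that count was 1, Gclc. The comparisons share samples: both radiation responses enter the interaction, and each group enters 2 of the other comparisons.

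**Figure D3:**
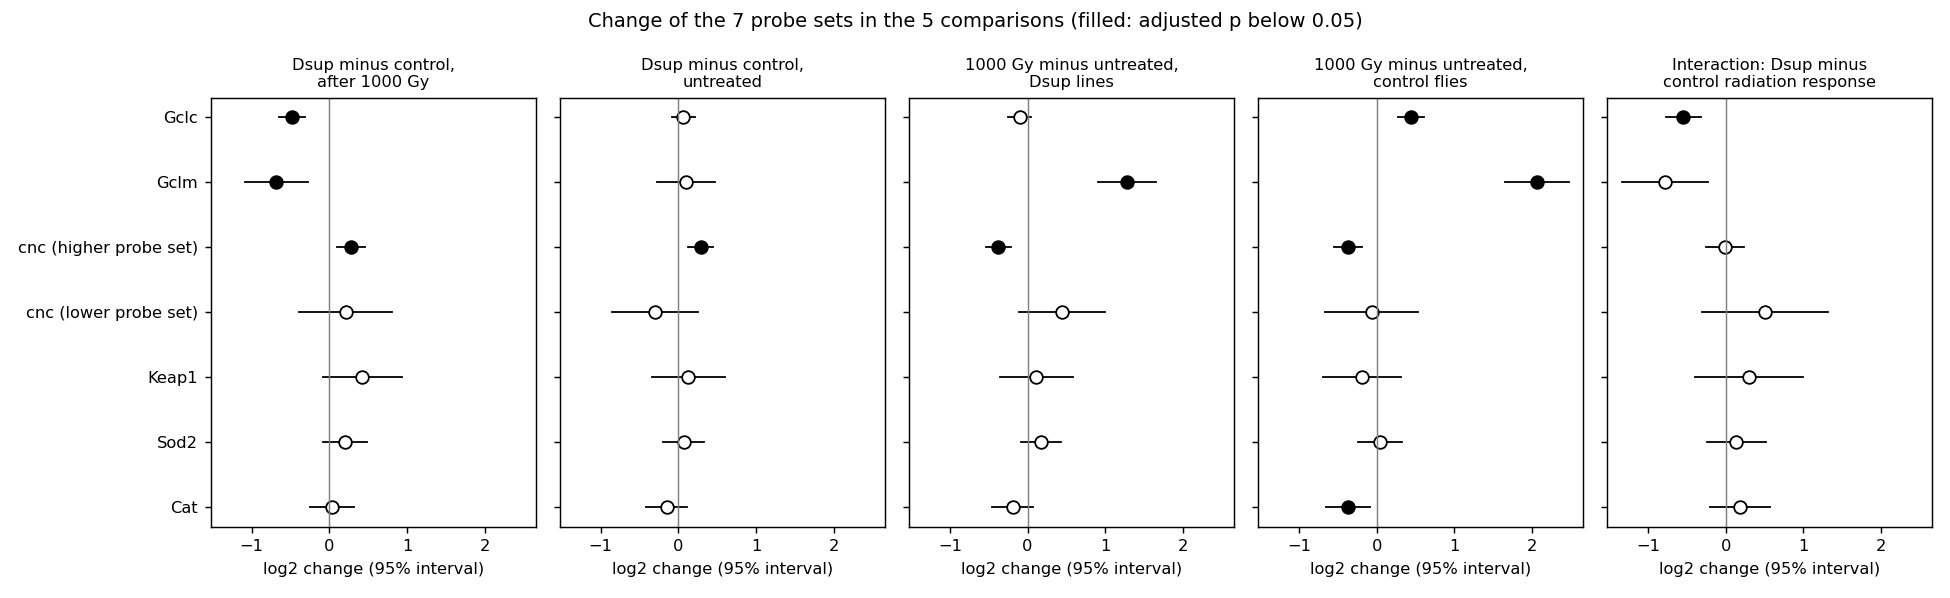
Log2 change (horizontal axis, with its 95% interval) of the 7 probe sets in the 5 comparisons; filled points were called at an adjusted p below 0.05. Gclm reaches 1.28 in Dsup lines and 2.06 in control flies after radiation, and the other changes lie between -0.78 and 0.51.

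The choice of scaling shifted the changes of most probe sets, by amounts that differed between probe sets. On deposited values the median change of all genes was -0.45 between Dsup lines and controls after radiation, -0.65 in untreated flies, 0.48 with radiation in Dsup lines, 0.27 in control flies and 0.21 in the interaction. Quantile normalization brought these medians to between -0.02 and 0.02. Relative to the median of all genes, Gclm stayed high after radiation in both genotypes under the 4 scalings compared, and Gclc stayed low in irradiated Dsup lines against irradiated controls.

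**Figure D4:**
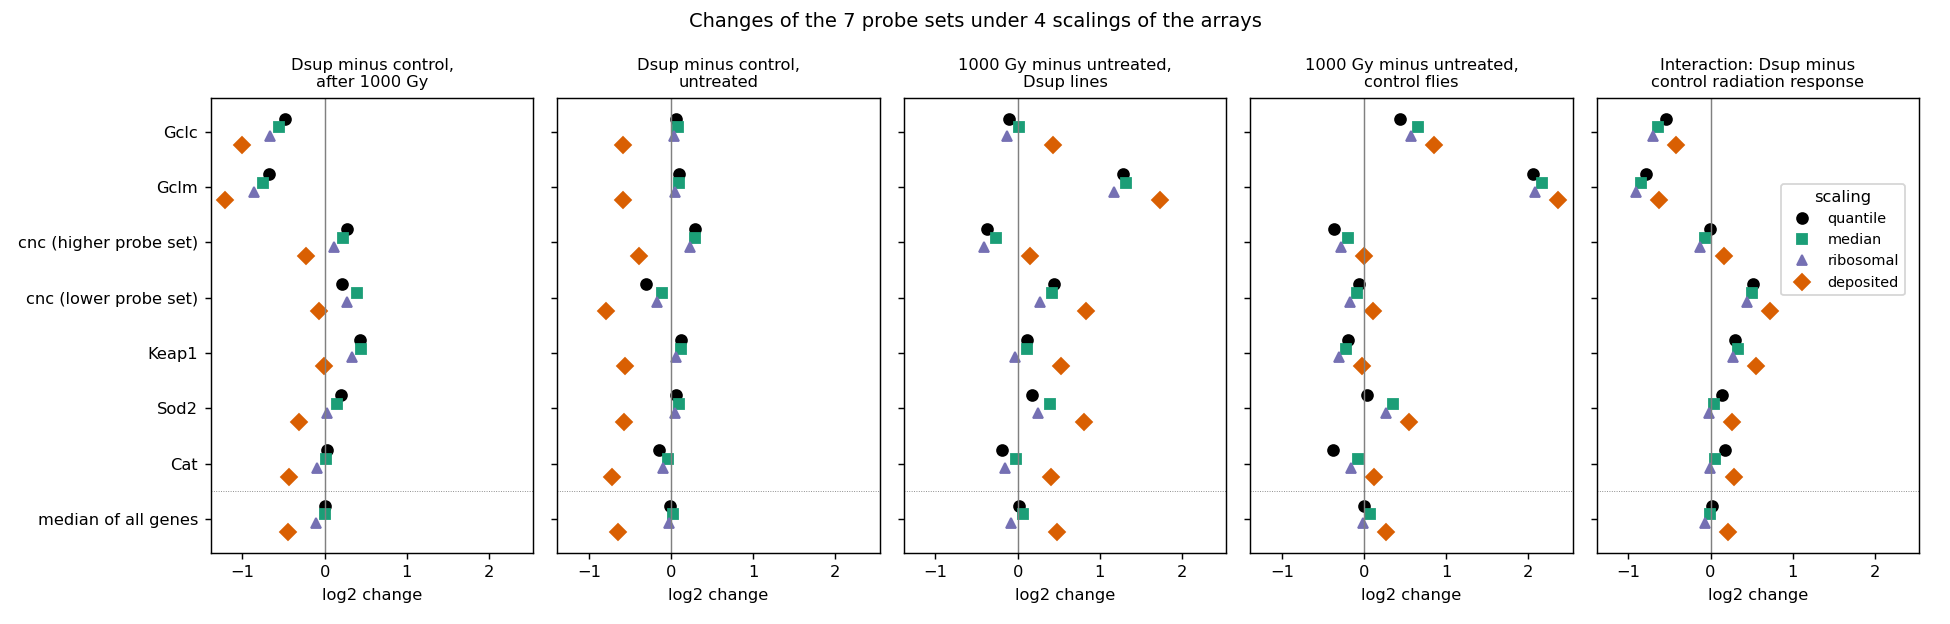
Log2 change (horizontal axis) of the 7 probe sets and the median of all genes in the 5 comparisons under 4 scalings: quantile normalization, centring on the array median, centring on ribosomal protein genes and the deposited values. On deposited values the median of all genes moved by -0.65 between untreated Dsup lines and controls and by 0.48 in Dsup lines after radiation.

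The neighbouring pathways were counted from lists of 56 genes, of which 42 had a probe set and 36 were not among the 6 genes above. With radiation, 6 of these 36 rose and 1 fell in Dsup lines (median 0.06), while 8 rose and 6 fell in control flies (median 0.03). These 7 and 14 genes were 19.4% and 38.9% of the 36, against 20.6% and 36.3% of all genes. Between Dsup lines and controls 1 was higher and 1 lower after radiation, where 10.3% of all genes were called. In untreated flies limma called 0 of the 36, with 4 at an unadjusted p below 0.05, where 9.31% of all genes were called. On deposited values limma called 33 there, and 16742 of all 18769 probe sets. These counts depend on the processing. With the 3' minus 5' covariate 3 were called with radiation in Dsup lines and 5 in control flies, beside 2006 and 1686 of all 18769 probe sets. On deposited values 32 and 21 were called, beside 14489 and 9297 probe sets. With the spread estimated without irradiated controls 4 and 11 were called, beside 3002 and 5458 probe sets. In Dsup lines the count of the 36 was 3 without irradiated Dsup-1 and 4 without irradiated Dsup-4. In control flies it was 7, 7 and 5 without irradiated control 1, 2 or 3 and 9 without untreated control 4. Over all probe sets, 3051 to 4293 and 4616 to 6625 were called without 1 array. Of the calls of single genes given next for the radiation responses, those of ref(2)P in both genotypes and of Trx2 and Trxr1 in control flies held under all 13 alternatives and without each array, and no other did both.

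In the list of Keap1 and CncC regulation, ref(2)P had the largest change. It encodes the fly p62 protein, an autophagy receptor, and the gene is a CncC target. It averaged 9.95 in irradiated Dsup lines and 10.66 in irradiated controls, against 9.28 in untreated Dsup lines and 9.39 in untreated controls. It rose by 0.67 ± 0.13 in Dsup lines (limma adjusted p = 0.00282) and by 1.26 ± 0.14 in control flies (1.92e-05), and after radiation it was lower in Dsup lines, with a difference of -0.71 ± 0.14 (0.00547). Its interaction of -0.59 ± 0.20 was not called (0.0754). In Dsup lines the changes of maf-S, of Cul3, the scaffold of the ligase that Keap1 serves, and of the RING subunit gene Roc1a were 0.04, -0.23 and 0.21, none of them called. In control flies maf-S fell by 0.38, Cul3 fell by 0.35 and Roc1a rose by 0.37. On deposited values the changes of maf-S and Cul3 were 0.018 and 0.094, neither called, and with the spread estimated without irradiated controls Roc1a was not called (limma adjusted p = 0.0614).

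In the thioredoxin system, which in flies also reduces oxidized glutathione because they lack glutathione reductase, 2 of 6 measured genes rose in both genotypes and the other 4 were called in neither, beside 20.6% of all genes called in Dsup lines and 36.3% in control flies. Trxr1, thioredoxin reductase, rose by 0.50 ± 0.14 in Dsup lines (limma adjusted p = 0.0185) and by 0.996 ± 0.15 in control flies (0.000171). Trx2, a thioredoxin, rose by 0.58 ± 0.12 in Dsup lines (0.00474) and by 0.96 ± 0.13 in control flies (9.46e-05). In Dsup lines the call of Trxr1 was lost without untreated Dsup-1 or Dsup-2 or irradiated Dsup-1 (limma adjusted p = 0.0503 to 0.0574). The interactions of Trxr1 and Trx2, -0.49 ± 0.20 and -0.39 ± 0.18, were not called (0.151 and 0.211).

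In the list of glutathione synthesis and recycling, 3 of 9 measured genes rose in Dsup lines: Gclm and the glutaredoxin genes Grx1t (0.37 ± 0.12) and Grx1 (0.28 ± 0.09), beside 20.6% of all genes called. With the spread estimated without irradiated controls the glutaredoxin genes were not called (limma adjusted p = 0.0567 and 0.0796). In control flies 3 of 9 rose and 1 fell, beside 36.3% of all genes called. Besides the ligase subunits these were Cth, cystathionine gamma-lyase, which makes cysteine (0.59 ± 0.19), and Cbs, cystathionine beta-synthase, which lies before it (-0.41 ± 0.14). The call of Cbs was lost with that spread (limma adjusted p = 0.0546), and those of Cbs and Cth without any 1 of the irradiated controls. Of 8 genes of superoxide and peroxide removal, limma called 0 in Dsup lines, with 1 at an unadjusted p below 0.05. In control flies 2 of the 8 rose and 1, Cat, fell, beside 36.3% of all genes called. The first 2 were Ccs, the copper chaperone for Sod1 (0.66 ± 0.18, at a low level of 2.48 in irradiated against 1.83 in untreated controls), and the peroxiredoxin gene Prx6a (0.42 ± 0.08).

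In the remaining lists, Men-b, a malic enzyme gene of the NADPH supply list, fell by 0.57 ± 0.11 in Dsup lines (limma adjusted p = 0.00221) and fell by 0.72 ± 0.12 in control flies (0.000344). The ferritin gene Fer3HCH rose by 0.31 ± 0.10 in Dsup lines, and the transferrin gene Tsf1 rose by 0.93 ± 0.27 in control flies. With the spread estimated without irradiated controls Fer3HCH was not called (limma adjusted p = 0.0841). Nox, an NADPH oxidase gene, was the only one of the 36 genes called in the interaction (0.58 ± 0.14, limma adjusted p = 0.0189). Nox was also called lower with radiation in control flies (-0.30 ± 0.10, limma adjusted p = 0.032), under 7 of 12 alternatives. After radiation it was called higher in Dsup lines than in controls (0.43 ± 0.10, limma adjusted p = 0.014), under 8 of 12. It averaged 3.35 in irradiated Dsup lines and 2.92 in irradiated controls, against 3.07 in untreated Dsup lines and 3.23 in untreated controls, at percentile 38.1 of probe sets, below the filter on level. The interaction call was made under 7 of 11 alternatives. It was lost after centring on ribosomal protein genes (0.53, limma adjusted p = 0.114), with the 3' minus 5' covariate (0.56, 0.0616), within either spike-in part and without irradiated control 3 (0.52, 0.0632). Xanthine dehydrogenase, encoded by ry, fell by 0.51 ± 0.15 in control flies.

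**Figure D5:**
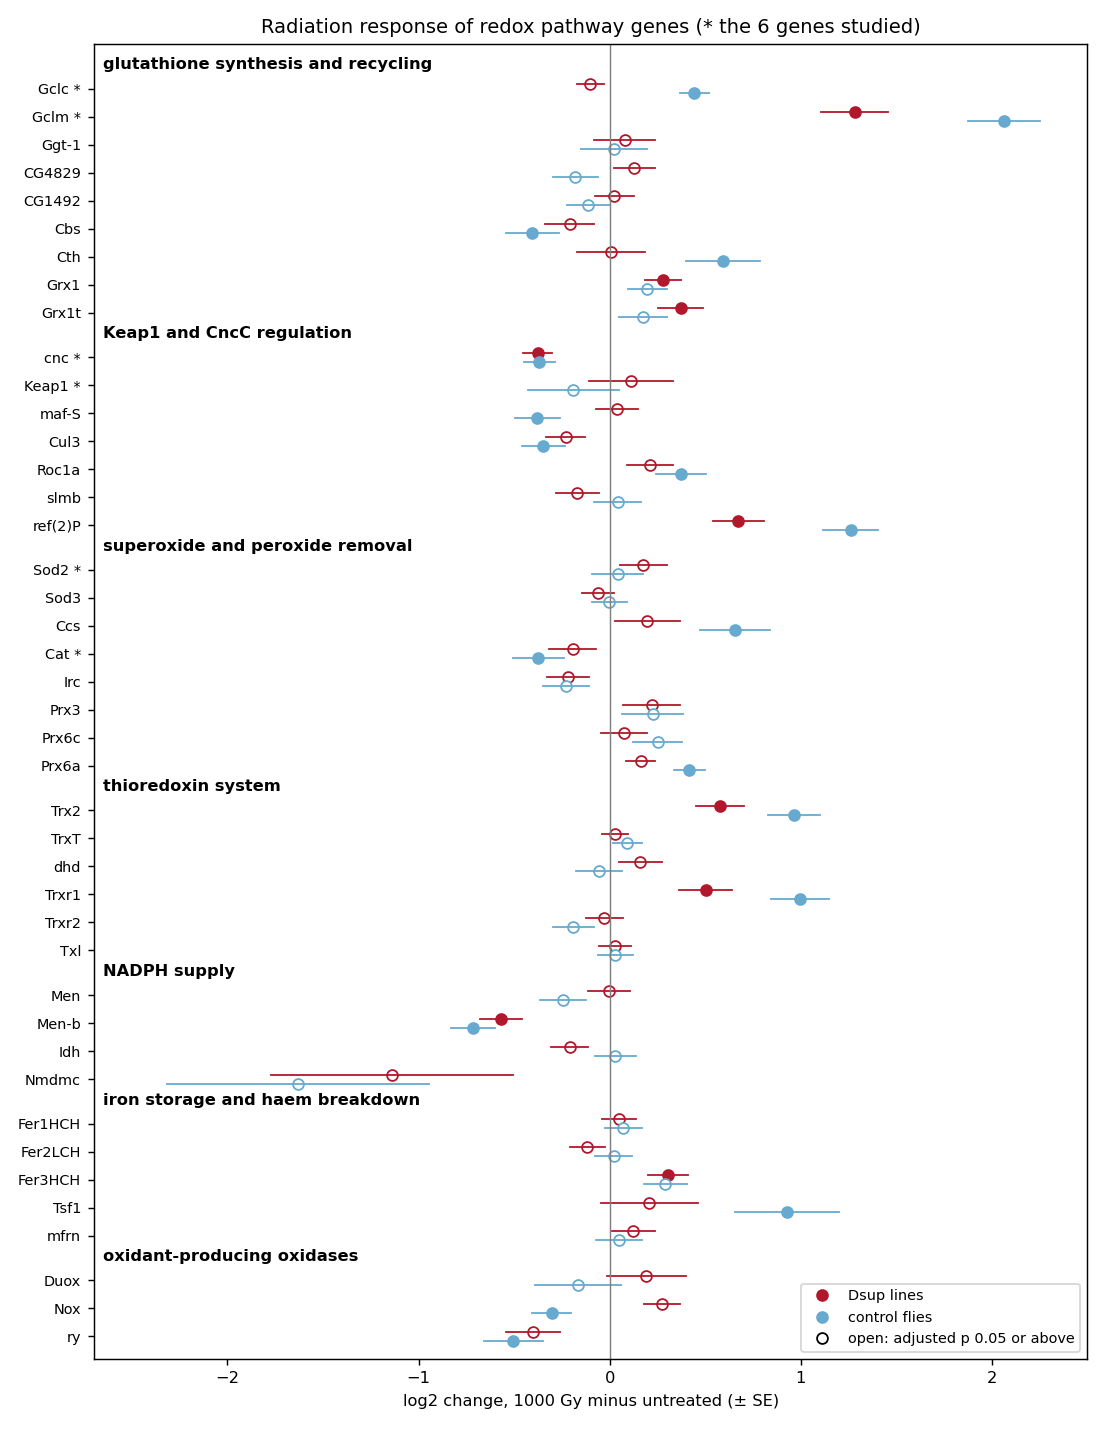
Log2 change after 1000 Gy (horizontal axis, ± SE) of the measured genes of 7 redox lists, with Dsup lines above control flies for each gene; filled points were called, and asterisks mark the 6 genes described first. Gclm, ref(2)P, Trxr1 and Trx2 lie to the right in both genotypes, and Men-b to the left.

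Tissue markers moved with radiation beside these genes. Beside 20.6% of all genes called in Dsup lines and 36.3% in control flies, 2 of 5 fat body markers rose in Dsup lines and 4 in control flies, and their summed level on the linear scale was 1620 to 2249 in irradiated Dsup lines and 1828 to 2446 in irradiated controls, against 924 to 1455 in untreated Dsup lines and 403 to 977 in untreated controls. In untreated flies 2 of the 5 were higher in Dsup lines than in controls, beside 9.31% of all genes called. After radiation limma called 0 of the 5 between Dsup lines and controls, beside 10.3% of all genes, and 0 had an unadjusted p below 0.05. Of 7 accessory gland markers, 1 rose in Dsup lines and 5 in control flies, while 2 of 4 neuron and 2 of 5 midgut markers fell in each genotype. Of 6 female markers 1 rose in Dsup lines and 2 in control flies, and of 8 testis markers 2 rose in Dsup lines, while 1 rose and 1 fell in control flies. Of the Malpighian tubule, eye, muscle and haemocyte markers, 4, 3, 4 and 4 in number, 1 haemocyte marker rose in Dsup lines, and in control flies 1 tubule and 1 haemocyte marker rose and 1 tubule and 1 eye marker fell. Between untreated Dsup lines and controls, 1 testis marker was lower and 1 tubule marker higher in Dsup lines. After radiation 2 female markers were lower in Dsup lines, and 1 testis, 1 accessory gland and 1 midgut marker were higher. Outside the fat body, no other marker was called between the genotypes. The part of tissue composition in the changes of Gclm and Gclc was not tested.

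The genes whose levels ran most like those of each probe set over the 15 arrays were taken from 9352 genes above the lowest 40% of probe sets by level, as a description in which the arrays share groups and scaling. For Gclm these were CG2065 (Pearson r = 0.990), CG16898 (0.983) and CG44251 (0.983). For Gclc they were RNaseZ (0.866), Dgp-1 (0.863) and eIF6 (0.858), and for the higher cnc probe set Vha26 (0.967), CDK2AP1 (0.945) and CG10939 (0.940). For Sod2 they were ND-B16.6 (0.909), COX4 (0.898) and ome (0.891), the first 2 of them genes of the mitochondrial respiratory chain. For Keap1 they were Smvt (0.889), CG8562 (0.861) and Agpat3 (0.859), and for Cat Golgin84 (0.894), CG5043 (0.889) and CG6262 (0.889). Among the genes studied themselves, Gclm and Gclc had r = 0.552, and Gclm and the higher cnc probe set r = -0.756, over arrays that fall into the 4 groups.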

How the data were processed

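Total RNA was measured on 15 Affymetrix 3' arrays, with biotin-labelled cRNA made with a 3' IVT kit per the labels' protocols. The authors deposited 1 table of log2 levels for 18952 probe sets; the scale was read from the values, and no source used here names the probe summary, normalization, detection calls or genome build. Without the 183 Affymetrix controls, the remaining 18769 probe sets were quantile-normalized over the 15 arrays. Of these, 13647 carried 1 gene symbol, 402 several and 4720 none in the platform annotation, and a gene stands for its probe set with the highest mean, with both probe sets of cnc shown. Group means of the 4 groups and 5 contrasts between them were fitted with limma 3.58.1 in R 4.3.3 (empirical Bayes, two-sided, Benjamini-Hochberg over 18769 probe sets, threshold 0.05). The number of arrays limits the precision.

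The genes studied and the pathway and marker lists were chosen with earlier results of these data known. At most 4 further genes of a list are named: those called in at least 1 contrast with the largest change. Control replicate numbers share only a number. The Dsup lines are paired by the labels, since the same line was measured with and without radiation, although the deviations of the 2 arrays of a line from their group means correlated at only -0.18 to 0.11. The main fit has no replicate block. The code was tested on simulated data. Alternatives were 4 scalings, a filter on level, other fits, a replicate block, an RNA quality covariate, the spike-in split and leaving out each array; a spread without irradiated controls, and all alternatives for the named list genes, were added after seeing the data.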

Additional observations from a re-analysis of the deposited data

Results flagged for a closer look

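Cat in untreated control 2 stood at 10.10, against 10.44, 10.45 and 10.44 in the other 3 untreated controls. Its gap to the nearest of them was above Dixon's 95% critical value for 4 samples. This was 1 of 21 groups of 4 examined, and chance alone flags about 1 in 20. The interaction of Gclc, -0.54 on the log2 scale (limma adjusted p = 0.0054), is a tested difference between the radiation responses of Dsup lines (-0.10) and control flies (0.44). The 3 irradiated control arrays that set it apart share many identical deposited values, 2 distinct ones among 3 for Gclc. With the spread estimated without them the interaction was still called. That fit still counts them as 3 independent arrays, so it cannot show whether the call would hold if they are not independent.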

How the results depend on the processing

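The number of arrays, the shared values of the irradiated controls and the scaling of each group set the limits of these results. Over 443 values of the 7 probe sets under 13 alternatives, 352 kept their direction and their side of the threshold, 42 lost and 9 gained a call in the same direction, and 40 changed sign. Over 525 values with 1 array left out, these numbers were 485, 24, 1 and 15. The rise of Gclm in both genotypes kept its call throughout. No control arrays were paired beyond a shared number: same-numbered control arrays correlated at -0.16 to 0.25 in their deviations, 1 of 3 best with its own number, and the causes of the changes below were not tested.

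Signs turned on deposited values for Dsup lines against control after radiation (the higher cnc probe set -0.23, lower cnc -0.064, Keap1 -0.0082, Sod2 -0.31, Cat -0.44), for the same in untreated flies (Gclc -0.59, Gclm -0.58, higher cnc -0.39, Keap1 -0.56, Sod2 -0.57), with radiation in Dsup lines (Gclc 0.44, higher cnc 0.15, Cat 0.40), with radiation in control flies (lower cnc 0.11, Cat 0.12, maf-S 0.018, Cul3 0.094) and in the interaction (higher cnc 0.16). Median centring turned Gclc in irradiated Dsup lines (0.021). Ribosomal centring turned Cat after radiation (-0.094), Keap1 in irradiated Dsup lines (-0.030) and, in the interaction, Sod2 (-0.016) and Cat (-0.0013). With the replicate number as a replicate block, Cat after radiation (-0.0013), Sod2 in irradiated control flies (-0.0028) and the interaction of cnc (0.0061) turned. With the 3' minus 5' covariate, Cat after radiation (-0.0076), Keap1 in irradiated control flies (0.13) and the interaction of cnc (0.017) turned, and with the spike-in block Cat after radiation (-0.073). Within the high spike-in arrays, Cat after radiation (-0.24), lower cnc in irradiated control flies (0.12) and the interactions of higher cnc (0.037) and Cat (-0.071) turned. Within the low ones, where each Dsup group has 1 array, untreated Gclc (-0.028) and lower cnc (0.12), Keap1 after radiation (-0.011) and Sod2 in irradiated control flies (-0.078) turned. So did Gclc (0.0061), Keap1 (-0.49) and Sod2 (-0.069) in irradiated Dsup lines and the interaction of Keap1 (-0.17). None of these was called in the reported fit except cnc in 3 comparisons and Cat, maf-S and Cul3 in 1, all on deposited values.

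Without 1 array, values that turned ranged from -0.048 to 0.20 for untreated Gclm, -0.079 to 0.27 for untreated Keap1, -0.047 to 0.14 for untreated Sod2, -0.12 to 0.18 for Cat after radiation, -0.23 to 0.19 for lower cnc and -0.071 to 0.11 for Sod2 in irradiated control flies, -0.034 to 0.32 for Keap1 in irradiated Dsup lines and -0.056 to 0.046 for the interaction of higher cnc.

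Of the 6 genes, 3 were called between Dsup lines and controls after radiation, 5 on deposited values, 1 with the filter, the covariate, the spike-in block or the added spread, and 0 within either part (1 to 3 without 1 array). In untreated flies 1 was called, 6 on deposited values, and 0 by limma with ribosomal centring, the filter, only the groups compared, the covariate, either spike-in part or the added spread (0 to 1), with cnc at an unadjusted p of 0.002 in the reported fit. With radiation 2 were called in Dsup lines, 5 on deposited values and 1 within the low part (2 to 2), and 4 in control flies, 2 with ribosomal centring and 1 with the covariate or within the high part (3 to 4). In the interaction 1 was called, 2 with ribosomal centring and 0 within either part (1 to 2).

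Over all probe sets, 2258, 2003, 3999, 6384 and 1704 were called in these 5 comparisons, in the same order. Counts moved by over 1.5 times on deposited values (11606, 16742, 14489 and 4298 in all but control flies), with median centring (4307 after radiation and 3186 untreated), with the filter (477, 326, 1920, 4055 and 137), with only the groups compared (3573 after radiation and 506 untreated), with the covariate (2006, 1686 and 956 in the last 3), with the added spread (1139 untreated and 972 in the interaction), within the low part (28, 21, 425, 3550 and 2) and within the high part (314, 329, 2557, 1834 and 223). Without irradiated control 1, 2 or 3 they were 1106, 1055 and 1237 after radiation and 886, 866 and 959 in the interaction. Of the genes called, 44.6%, 50.8%, 49.9%, 51.0% and 42.7% were higher after quantile normalization, 1.06%, 0.277%, 98.3%, 85.9% and 87.5% as deposited, 60.1%, 73.1%, 63.0%, 62.8% and 38.6% with median centring, and 29.3%, 63.2%, 22.7%, 49.5% and 19.5% with ribosomal centring.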
